A study of Zea mays with 64 samples.

Results

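Family NE72 was a set of 7 maize plants whose Mu transposon insertions were mapped in endosperm and in leaf of the same kernel. Its members were the leaf and endosperm libraries of plants 1, 2, 3, 4, 5, 8 and 9, paired by plant number, together with the endosperm library of the father, plant ND67-51. These 15 libraries were chosen by family name from 64 in all. The series covered 4 such families of the maize inbred line W22, each from a different Mu-active father. The question was which insertions of the father were passed on, which were new, and which were found in 1 tissue only.

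All 7 plants came from Mu-active W22 pollen on a Mu-inactive W22 ear, and the father had itself been made by that kind of cross. No plant received a treatment, and all progeny shared the W22 genotype label. Each progeny kernel was chipped for endosperm and then sown, and leaf was harvested 10 to 13 days after sowing. Endosperm DNA was extracted by modified CTAB and leaf DNA on columns of a kit, which means that tissue and extraction cannot be told apart. There was 1 father library, from endosperm, and no library of the Mu-inactive ear parent was used here. The plants had 1 father, so values over them describe the progeny of that father.

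Mu elements are DNA transposons, and an insertion normally leaves a short duplication of the target sequence on both of its sides. Insertions carried by a gamete are present in every cell of the tissue formed from it, whereas an insertion made later is confined to a sector of cells. Pollen delivers a pair of sperm nuclei, formed by mitosis from 1 haploid nucleus, of which 1 founds the embryo and hence the leaf and the other founds the endosperm. Endosperm receives a pair of maternal genomes and 1 paternal genome, and leaf receives 1 of each. A father that carries an insertion on 1 of its homologous chromosomes passes it to some progeny only, and insertions close together on that chromosome tend to be passed on together.

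Summed counts of the leaf libraries were 377381, 380110, 687094, 312329, 512572, 25037 and 371236 in plants 1, 2, 3, 4, 5, 8 and 9. In endosperm they were 23657, 73941, 36697, 12521, 10173, 5999 and 14799 in the same order. The leaf library was deeper in every plant, by 4.17 to 50.4 times. A site counted as present where a library held at least 10 counts and at least 100 CPM (the count scaled to a library total of 1000000). In shallow libraries the 10 counts were the higher hurdle, which set the limit at 135.2 to 1667 CPM in endosperm but at 100 CPM in each leaf library except that of plant 8, where it was 399.4 CPM.

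The authors' list gave 93 insertions for the father, of which 29 were also listed for the Mu-inactive parent. The other 64 are called paternal insertions here, and all 64 spanned 9 bp in the deposited coordinates, the length of the duplication that Mu insertion is known to make. The list held 13 of the 64 for another Mu-active father as well and 51 for ND67-51 alone. In the father library the 64 lay between 897.4 and 10018 CPM, with a median of 6494 CPM. The list holds insertions found in progeny, so it could miss those that were passed to none. Of the sites at 1000 CPM or more in the father library that were not of the Mu-inactive parent, 63 of 63 were on the list and 0 were missing from all 7 leaf libraries.

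Leaf and endosperm gave the same answer for every paternal insertion. Over 64 insertions and 7 plants, 448 of 448 calls were equal in both tissues, and 448 of 448 equalled the authors' call for the plant. Carrier libraries held at least 18 counts in leaf and at least 10 in endosperm at such an insertion. Libraries of plants without it held at most 11 counts in leaf and at most 2 in endosperm, so the 11 counts lay below the CPM limit of their library. The 64 insertions were chosen from the list and not from these counts, although the list itself was made from the same libraries.

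Of the 448 calls, 248 were present, a share of 55.4%. Plants 1, 2, 3, 4, 5, 8 and 9 carried 33, 32, 33, 37, 41, 32 and 40 of the 64 paternal insertions. As shares these ran from 50% in plants 2 and 8 to 64.1% in plant 5. The mean exceeded 50% by 5.36 ± 6.04 percentage points (SD, n = 7), with 5 plants above 50% and 2 at it. An exact two-sided sign-flip permutation test over plants gave p = 0.0625, or 0.1 after Benjamini-Hochberg adjustment over the 8 tests run, so the excess did not pass. The number of plants that carried an insertion ran from 1 to 7. It was 1 plant for 4 insertions, 2 for 8, 3 for 13, 4 for 19, 5 for 10, 6 for 7 and 7 for 3.

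**Figure D1:**
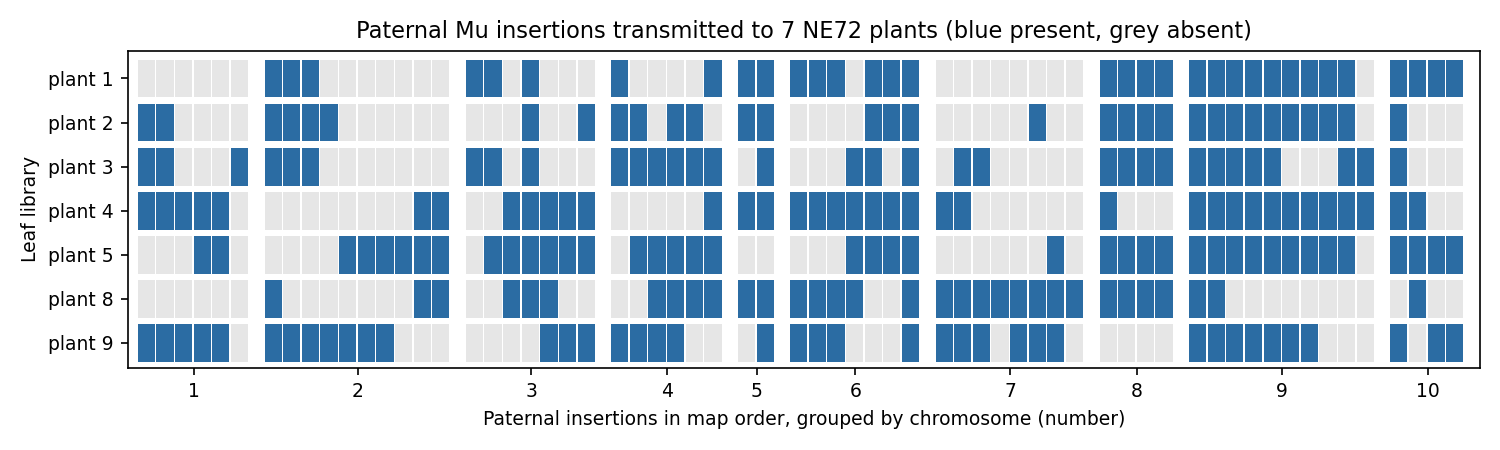
Each square is 1 of the 64 paternal insertions (columns, in map order within numbered chromosomes) in the leaf of 1 plant (rows), blue where present and grey where absent. Chromosome 9 is mostly blue and chromosome 7 mostly grey, and blue and grey squares stand in runs; 50 of the 70 rows of a chromosome hold both colours.

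The map of presence by chromosome shows how the paternal haplotypes were divided among the plants. A plant had all paternal insertions of a chromosome in 15 of 70 combinations of plant and chromosome, none in 5, and some in 50. Chromosomes 2 and 9 carried most, with 10 paternal insertions each, and were passed on unequally: 28 of 70 calls (40%) were present on chromosome 2 and 53 of 70 (75.7%) on chromosome 9. These shares are descriptions, since neighbouring insertions are linked and the 7 plants are the units.

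Chromosome 2 was split in every plant. Its paternal insertions started at 9142431, 29436395, 31759211, 47365841, 114205019, 127224228, 202270575, 204000923, 231383390 and 234222559. Plants 1 and 3 had the first 3 of them and no other. Plant 2 had the first 4, and plant 9 the first 7, so these 4 plants carried the left part to different end points. Plants 4 and 8 carried the last 2, and plant 8 also had the first. Plant 5 had the last 6, from 114205019 onward, and none of the first 4. No position on chromosome 2 was carried by more than 5 of the 7 plants.

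The insertion at 9142431–9142439 on chromosome 2 was present in 5 plants at 8411 ± 984 CPM (SD, n = 5) in leaf and 5367 ± 988 CPM (SD, n = 5) in endosperm. Its highest count in a plant without it was 2 in leaf and 0 in endosperm. The insertion at 47365841–47365849 lay lower, in plants 2 and 9 only, at 953.6 and 2920 CPM in leaf and at 1216 and 2759 CPM in endosperm, with no count in the other plants. Levels of paternal insertions thus differed from site to site while presence was clear in each.

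Chromosome 9 was passed on in large pieces from its left end. Its insertions started at 11958559, 90427249, 103512863, 128477916, 142977151, 144647841, 155861635, 159414085, 161041300 and 162931309. All 7 plants had the first 2. Plant 8 had no other, and plant 9 had the first 7. Plants 1, 2 and 5 had the first 9 and lacked the last, so in each of these 3 plants the state changed within the 1.89 Mb between 161041300 and 162931309. Plant 4 had all 10. Plant 3 had the first 5, lacked the next 3 and had the last 2. The leftmost insertion lay at 2950 ± 276 CPM (SD, n = 7) in leaf and 4529 ± 624 CPM (SD, n = 7) in endosperm, while the next, at 90427249–90427257, lay at 6912 ± 1039 CPM in leaf and 3798 ± 613 CPM in endosperm. In CPM, leaf was the lower tissue at the first of these neighbours and the higher at the second. In the edgeR test with TMM factors given below, the log2 difference, leaf over endosperm, was -0.10 at the first (edgeR adjusted p = 0.593). At the second it was 1.36 (edgeR adjusted p = 6.33e-07).

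The other chromosomes ranged between these. Chromosome 8 had 4 paternal insertions over 87.7 Mb, with all 4 in 5 plants, none in plant 9, and the first alone in plant 4, where the state changed between 20005693 and 27830291. Chromosome 5 had 2, at 71090739 and 166823745, both of them in 4 plants, neither in plant 5, and the second alone in plants 3 and 9. Chromosome 1 had 6 over 303.2 Mb, of which 273.1 Mb lay between the fifth, at 34300461, and the sixth, at 307400988. Plants 1 and 8 carried none of the 6, and plant 3 was the one plant with the sixth. Chromosome 10 had 4, and the last 2, at 146757392 and 146757410, lay 18 bp apart with the same carriers, plants 1, 5 and 9.

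Chromosome 7 had the lowest share, 20 of 56 calls (35.7%). Plant 8 carried all 8 of its paternal insertions, plant 1 carried none, and plants 2 and 5 carried 1 each. Chromosome 6 had 32 of 49 calls present (65.3%), and its last insertion, at 165546043–165546051, was in all 7 plants. Averaged over all 14 libraries, with plants that lack an insertion included, it had the highest mean CPM of the paternal set, while others were higher among their carriers. In leaf it stood at 5697, 5964, 5015, 5722, 5295, 5791 and 5711 CPM in plants 1, 2, 3, 4, 5, 8 and 9, and in endosperm at 5918, 5978, 5913, 5511, 5505, 5001 and 7974 CPM. All 14 libraries were within a narrow band apart from the endosperm of plant 9, and the ranges of the tissues overlapped. Chromosome 3 had 25 of 49 present (51.0%), and chromosome 4 had 26 of 42 (61.9%).

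A change of presence between adjacent paternal insertions is called a switch here. Crossing-over in the meiosis of the father is the known way in which a transmitted chromosome passes from 1 homologue to the other. A switch marks such a passage only where both insertions lay on the same homologue of the father and not on the other. Whether they did was not tested. There were 76 switches over 378 chances (54 intervals in each of 7 plants). Per plant the number was 9, 13, 15, 7, 9, 10 and 13 in plants 1, 2, 3, 4, 5, 8 and 9. A chromosome in a plant had 0 switches in 20 combinations, 1 in 30, 2 in 14 and 3 in 6, and none had more. Chromosome 3 had most, with 14, and chromosome 8 had 1. Switches were fewer per chance in short intervals, with 10 of 84 (11.9%) under 5 Mb, 35 of 161 (21.7%) from 5 to 20 Mb and 31 of 133 (23.3%) at 20 Mb or more. These shares have no test, since the 54 intervals recur in each plant.

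Several intervals held switches in 3 or 4 plants. The 273.1 Mb gap of chromosome 1 switched in plants 3, 4, 5 and 9, and the gap of 129.1 Mb on chromosome 10, between 4691868 and 133837893, switched in plants 2, 3, 8 and 9. Much shorter ones also did: the interval between 13155915 and 30260850 on chromosome 3 (17.1 Mb) switched in plants 1, 3, 4 and 8. On chromosome 6 the intervals from 148613351 to 155664645 (7.05 Mb) and from 159702285 to 165546043 (5.84 Mb) each switched in 3 plants. An even number of exchanges inside an interval leaves no switch, so long intervals undercount them.

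In 13 cases a single insertion had the opposite state to both of its neighbours, 6 times present and 7 times absent. In 3 of these the neighbours lay less than 20 Mb apart. Plant 2 had the insertion at 162857275–162857283 on chromosome 7 with 2056 counts in leaf and 375 in endosperm, while the one 0.296 Mb to its left and the one 10.8 Mb to its right were absent. Plant 5 had the insertion at 173668585–173668593 on chromosome 7 with 1093 and 26 counts between absent neighbours. Plant 3 lacked the insertion at 159702285–159702293 on chromosome 6, with 0 counts in both tissues, between present neighbours 9.88 Mb apart. Each of these states was the same in both tissues of the plant.

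NE72 plants had more switches than plants of the other families by number, though not per interval. The mean was 10.9 ± 2.85 (SD, n = 7) in NE72 and 6.35 ± 2.08 (SD, n = 23) in the other 3 families, a difference of 4.51. Counting only runs of 2 or more insertions of 1 state, it was 4.29 and 2.26, a difference of 2.02. For the difference of 4.51 in all switches, an exact two-sided permutation test of the family labels over plants gave p = 0.000278, adjusted p = 0.00222. Each family had 1 father, so the plants of a family are not independent of each other and the p-value compares these plants and not fathers. The fathers of NE71, NE72, NE73 and NE74 had 27, 64, 51 and 71 paternal insertions, and a father with more insertions has more intervals in which a switch can be seen. NE74, with 61 intervals against 54 in NE72, nevertheless had 7.75 ± 2.05 switches per plant (SD, n = 8). As a percent of intervals, NE72 had 20.1 ± 5.28 against 18.6 ± 9.00 in the others, a difference of 1.5 percentage points with exact permutation p = 0.682. By family the percent was 28.3 in NE71, 14.3 in NE73 and 12.7 in NE74.

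New insertions, defined as neither listed for the father or the Mu-inactive parent nor present in the father library, were found in both tissues of every plant. They numbered 57, 57, 62, 49, 57, 60 and 45 in plants 1, 2, 3, 4, 5, 8 and 9, a mean of 55.3 ± 6.07 (SD, n = 7). Plant 8, with the shallowest leaf and endosperm libraries, had 60. When the deeper library was thinned to the total of the shallower one in each plant, the mean was 53.3 ± 5.41 (SD, n = 7). New insertions in both tissues thus outnumbered the transmitted paternal insertions, 32 to 41 a plant, in each of the 7 plants.

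**Figure D2:**
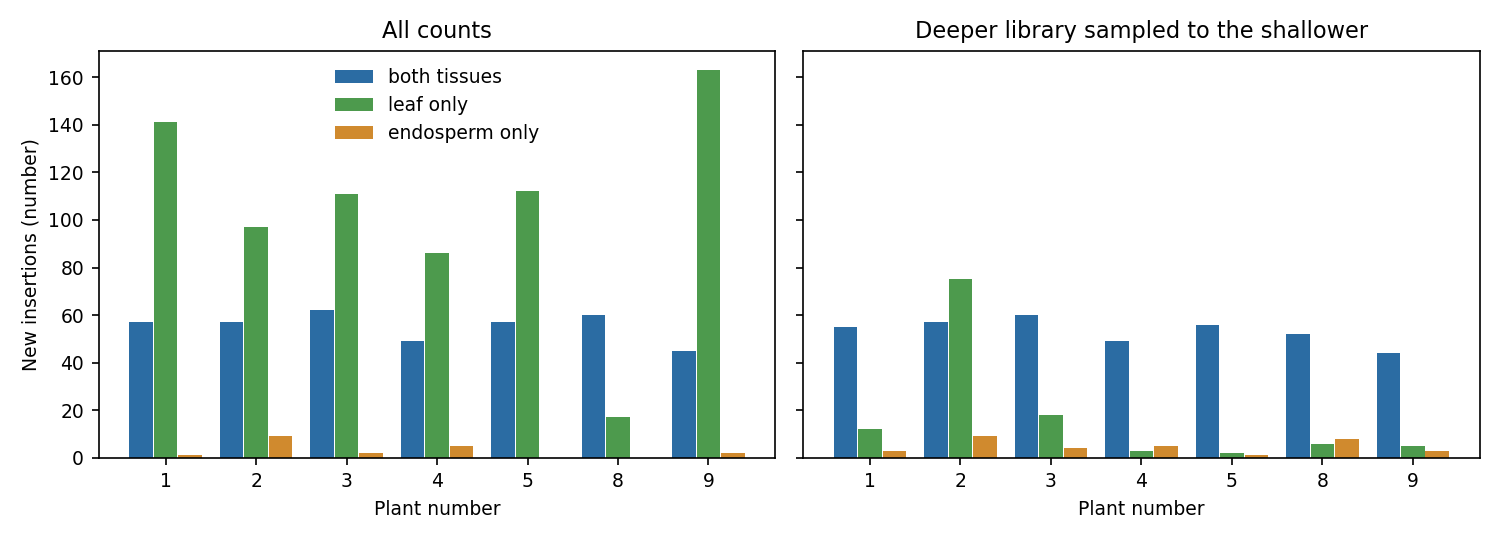
Bars give the number of new insertions per plant present in both tissues (blue), in leaf only (green) and in endosperm only (orange), with all counts on the left and at equal depth of leaf and endosperm on the right; each bar is 1 plant, so there are no error bars. The blue bars stay between 44 and 62 in both panels, while the green bars fall to 18 or fewer at equal depth except in plant 2, which keeps 75.

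The 387 calls fell on 345 distinct sites, of which 340 spanned 9 bp. The authors' list held 339 of them. It gave 387 new calls for NE72, and 381 of these were present in both tissues here and 6 in leaf only. In the father library 307 of the 345 had 0 counts, and the highest count was 6. Only 1 of the 345 was present in a library of another family. In 5 pairs the sites lay less than 50 bp apart in the same plant, and in 2 of these pairs 2 bp apart, and whether a pair came from 1 insertion was not tested.

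Most new insertions in both tissues belonged to a single plant. There were 309 such private insertions, 56, 31, 30, 30, 57, 60 and 45 in plants 1, 2, 3, 4, 5, 8 and 9. The private insertion with the highest level in each plant shows the range. Plant 1 had its insertion at 246217558–246217566 on chromosome 4 with 2694 leaf and 184 endosperm counts, or 7139 and 7778 CPM. Plant 9 had 2595 and 114 counts, or 6990 and 7703 CPM, at 291115332–291115340 on chromosome 1. Plant 8, at its lower depth, had 210 and 29 counts, or 8388 and 4834 CPM, at 172416314–172416322 on chromosome 4. In these 3 the other plants held at most 9 counts in leaf and 0 in endosperm.

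The remaining 4 plants gave similar values. Plant 2 had 6593 CPM in leaf and 6316 CPM in endosperm at 223145879–223145887 on chromosome 2. Plant 3 had 5650 and 6322 CPM at 182878721–182878729 on chromosome 4, and plant 5 had 4967 and 6193 CPM at 1522122–1522130 on chromosome 5. Plant 4 had 5539 and 6709 CPM at position 183599035 on chromosome 3, a site 1 bp long, next to a second new site at 183599037–183599045 in the same plant. The endosperm level of the top private insertion was above its leaf level in plants 1, 3, 4, 5 and 9 and below it in plants 2 and 8.

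The level of new insertions in both tissues was close to that of paternal insertions in the same library. The median new insertion stood at 101.8 ± 12.3% (SD, n = 7) of the median transmitted paternal insertion in leaf, with 92.2% the lowest and 122.9% the highest plant. In endosperm it stood at 97.1 ± 7.20% (SD, n = 7), from 83.9 to 104.2%. On the log2(CPM + 1) scale the difference of medians, new minus paternal, was 0.02 ± 0.17 in leaf (SD, n = 7, exact sign-flip p = 0.766, adjusted p = 0.766). It was -0.05 ± 0.11 in endosperm (SD, n = 7, exact sign-flip p = 0.344, adjusted p = 0.393). Neither difference was larger than the spread between plants. A level of 25% of the paternal median or more was reached by 368 of 387 new calls in leaf and by 377 of 387 in endosperm.

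**Figure D3:**
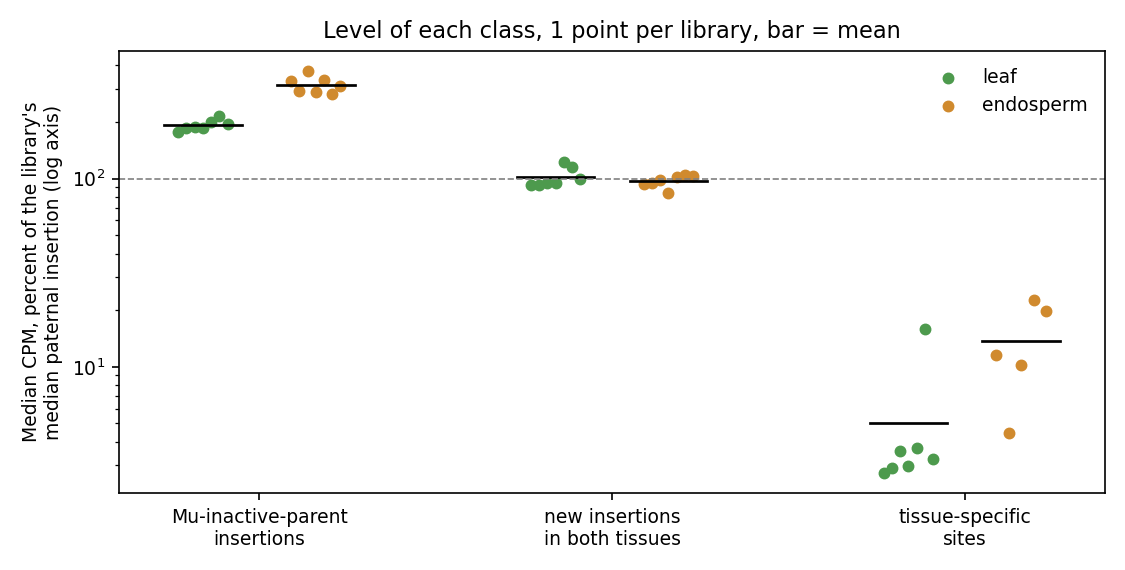
Each point is 1 library (green leaf, orange endosperm) and gives the median CPM of a class of sites as a percent of the median transmitted paternal insertion of that library, on a log axis; black bars are means and the dashed line marks 100%. New insertions in both tissues lie around 100% in both tissues, tissue-specific sites lie far below, and the insertions of the Mu-inactive parent are higher in all endosperm libraries than in any leaf library.

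A set of 36 new insertions was present in both tissues of more than 1 plant, and it was concentrated in plants 2, 3 and 4. Of the 36, 30 were in 2 plants and 6 in 3 plants. Plants 2, 3 and 4 carried 26, 32 and 19 of them, plant 1 carried 1, and plants 5, 8 and 9 carried 0. Plants 2 and 3 alone shared 16, plants 3 and 4 alone 10, plants 2 and 4 alone 4, and all of plants 2, 3 and 4 shared 5. The one insertion that involved plant 1 lay at 207133564–207133572 on chromosome 3 and was also in plants 2 and 3. The plants were not selected by this sharing, but the pattern was noticed in the data and has no test.

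**Figure D4:**
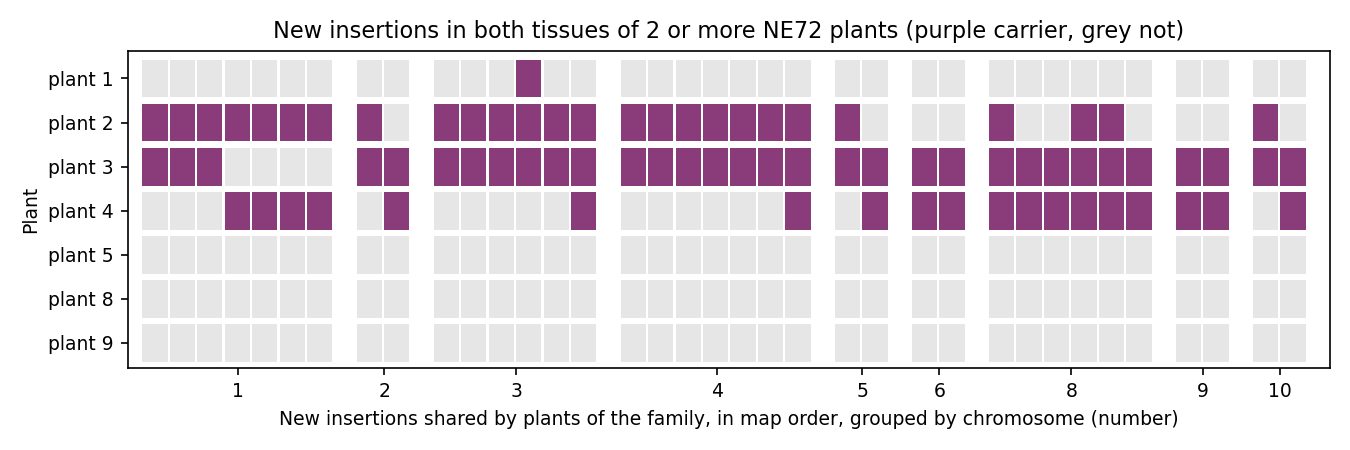
Each square is 1 of the 36 new insertions found in both tissues of at least 2 plants (columns, in map order within numbered chromosomes) in 1 plant (rows), purple where the plant carried it and grey where it did not. The purple squares lie in plants 2, 3 and 4, with 1 in plant 1 and 0 in plants 5, 8 and 9.

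The shared insertions stood at the level of paternal insertions in their carriers and near 0 elsewhere. At 240698698–240698706 on chromosome 3 the leaf counts were 6, 2498, 3860, 1842, 0, 0 and 0 in plants 1, 2, 3, 4, 5, 8 and 9, and the endosperm counts were 0, 512, 184, 74, 0, 0 and 0. In CPM the carriers stood at 6572, 5618 and 5898 in leaf and at 6924, 5014 and 5910 in endosperm. Carriers were defined by presence, and the other plants held at most 6 counts in leaf and 0 in endosperm. The father library, with 610687 counts, had 0 at this site.

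Another 4 insertions in plants 2, 3 and 4 behaved the same way. At 12335066–12335074 on chromosome 8 the carriers had 1784, 2756 and 1530 leaf counts and 406, 149 and 63 endosperm counts, and the father had 1. At 20237934–20237942 on chromosome 8 they had 2402, 3183 and 1758 in leaf and 382, 119 and 29 in endosperm. At 27527436–27527444 on chromosome 8 they had 1808, 2442 and 1200 in leaf and 340, 192 and 52 in endosperm. At 251613515–251613523 on chromosome 4 they had 1594, 2510 and 1413 in leaf and 320, 132 and 37 in endosperm, against at most 2 counts in any library of the other plants. The father library had 0 counts at the last 3 sites.

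Over all 36 shared insertions the father library had 0 counts at 33 and at most 2 at the rest. Its detection floor of 3 counts was 4.91 CPM, while the 33 insertions at 0 there had a median of 4506 CPM in endosperm of their carriers, at least 917-fold higher than the floor. Plants that lacked a shared insertion had at most 24 counts in leaf and at most 2 in endosperm. Of the 36, 35 spanned 9 bp. Their median level was 4487 CPM in leaf and 4462 CPM in endosperm, next to 4697 and 4167 CPM for private ones.

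The carriers of adjacent shared insertions were compared along each chromosome, with no test. Of 27 such pairs, 16 had the same carriers, with a median distance of 15.98 Mb, and 11 had different carriers, with a median distance of 96.1 Mb. The distances overlapped, from 0.307 to 131.7 Mb with the same carriers and from 2.60 to 197.3 Mb with different ones. Chromosome 4 held 7 of them. The 6 that started at 22340799, 24052538, 114757873, 176349896, 182381488 and 245316111 were in plants 2 and 3, and the last, at 251613515, was in plants 2, 3 and 4. Chromosome 1 also held 7, of which the first 3 (31886868, 39943259 and 48416202) were in plants 2 and 3 and the last 4 (144495030, 276233263, 279782490 and 309861145) were in plants 2 and 4. Plant 2 carried all 7 on both chromosomes, plant 3 also carried all 7 of chromosome 4, and on chromosome 1 plant 4 took the place of plant 3 after the third.

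Chromosome 8 held 6 shared insertions in less regular order. Plants 3 and 4 carried all 6, at 12335066, 14931211, 16969363, 20237934, 27527436 and 155697984. Plant 2 carried the first, the fourth and the fifth of them. On chromosomes 6 and 9 the 2 shared insertions of each (108555978 and 132042730, then 20382717 and 97605932) were in plants 3 and 4 only. Chromosome 7 had none.

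The nearest paternal insertions on both sides were set beside each shared insertion. Of the 36, 27 lay between paternal insertions of their chromosome. In 6 of these all carriers had both flanking paternal insertions, and in 1, at 31886868–31886876 on chromosome 1, the 2 carriers had neither. In the other 20 at least 1 carrier switched across the interval, together with a carrier that had both flanks or with switching carriers alone in 10, and with a carrier that had neither flank in 10. No shared insertion had 1 carrier with both flanks and another with neither. The plants that shared new insertions were not uniformly alike in paternal insertions: plants 2 and 3 had the same state at 73.44% of the 64, as did plants 1 and 2, whereas plants 3 and 4 did at 46.9%.

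Private new insertions were flanked about equally often by present and by absent paternal insertions. Where both flanking paternal insertions had the same state in the plant, which was so for 156 of the 309, 79 (50.6%) had both present and 77 had both absent. The share with both present was 49.3 ± 19.9% (SD, n = 7) per plant, and 57.1 ± 12.1% of the length of such intervals had both present. The difference was -7.76 ± 12.5 percentage points (SD, n = 7), below 0 in 4 plants and above in 3 (exact sign-flip p = 0.188, adjusted p = 0.25). Plant 2 had the lowest share, 3 of 17, and plant 5 the highest, 18 of 25. The ear parent was Mu-inactive, and the parent of origin of new insertions in such intervals was not tested. In endosperm, with its pair of maternal genomes, the median new insertion in both tissues stood at 97.1% of the paternal median.

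New insertions were spread over all chromosomes. Private ones numbered from 12 on chromosome 9 to 49 on chromosome 1. Taking the outer 10% of each chromosome at both ends, as far as sites of the table reach, 122 of the 309 private insertions (39.5%) and 26 of the 64 paternal ones (40.6%) lay there. Leaf-only sites had 255 of 725 there (35.2%).

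The 29 insertions of the Mu-inactive parent were present in all 14 progeny libraries, and every one was also listed for the father. Only 9 of the 29 spanned 9 bp, and the widest spanned 7196 bp. They took 24.4 ± 2.40% of all counts in leaf (SD, n = 7) and 40.2 ± 3.04% in endosperm (SD, n = 7), with no overlap between tissues. Paternal insertions took 15.8 ± 2.06% in leaf and 15.7 ± 1.97% in endosperm. Relative to the median transmitted paternal insertion of the same library, the median insertion of the Mu-inactive parent was 1.92-fold in leaf and 3.15-fold in endosperm.

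The log2 difference of that ratio, endosperm minus leaf, was 0.90, 0.65, 0.99, 0.64, 0.75, 0.40 and 0.67 in plants 1, 2, 3, 4, 5, 8 and 9. It was above 0 in 7 of 7 plants, with a mean of 0.71 ± 0.19 (SD, n = 7), a ratio of 1.64. The exact sign-flip test gave p = 0.0156, the smallest that 7 plants allow, and adjusted p = 0.0312. With the 9 sites of 9 bp alone, a choice made after seeing the data, the mean was 1.08 on the log2 scale, above the value for all 29, of which 20 have other spans. As background, endosperm holds an extra maternal genome relative to leaf. An insertion on both homologues of both parents has a copy in every genome of either tissue. The calls of 0 or 1 do not show how many homologues of a parent carry an insertion. Extraction method and tissue cannot be told apart in this endosperm-minus-leaf difference.

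Among the 29, the mean CPM was higher in endosperm for 28, and 22 were higher in all 7 plants. The ratio of endosperm to leaf mean CPM had a median of 1.63 and ran from 0.869 to 3.08. The strongest site of the class lay at 142959280–142961386 on chromosome 2, a region of 2107 bp. In leaf it had 11161, 11049, 10246, 11309, 8978, 10784 and 10473 CPM in plants 1, 2, 3, 4, 5, 8 and 9, and in endosperm 29843, 19367, 26869, 26675, 16711, 30338 and 21353 CPM. Every endosperm library was above every leaf library there. The lone site with a lower mean in endosperm, at 146442692–146444522 on chromosome 2, had 13373 ± 1964 CPM in leaf and 11622 ± 3407 CPM in endosperm (SD, n = 7 each).

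More insertions were present in leaf than in endosperm of each plant. Leaf libraries held 264, 219, 239, 205, 244, 139 and 283 in plants 1, 2, 3, 4, 5, 8 and 9, and endosperm libraries held 124, 133, 130, 124, 130, 123 and 120. The difference was 101.3 ± 47.3 (SD, n = 7), positive in 7 of 7 plants (exact sign-flip p = 0.0156, adjusted p = 0.0312). At equal depth it was 8, 64, 14, -6, -4, -9 and 2, a mean of 9.86 (exact sign-flip p = 0.422). Without plant 2 it was 0.833 at equal depth (exact sign-flip p = 0.844). The difference in number therefore did not pass at matched depth. A thinned leaf library had the presence limit of its endosperm library, 135.2 to 1667 CPM. Leaf sites below that limit could not be called, so the matched test cannot show whether endosperm lacked them.

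The excess consisted of low-level new sites seen in leaf alone. Leaf-only new sites numbered 141, 97, 111, 86, 112, 17 and 163 in plants 1, 2, 3, 4, 5, 8 and 9, and endosperm-only new sites 1, 9, 2, 5, 0, 0 and 2. The difference was 101.1 ± 46.4 (SD, n = 7, positive in 7 of 7, exact sign-flip p = 0.0156, adjusted p = 0.0312). At equal depth leaf-only sites numbered 12, 75, 18, 3, 2, 6 and 5 and endosperm-only sites 3, 9, 4, 5, 1, 8 and 3. The mean difference was then 12.6 (exact sign-flip p = 0.172), and 3.67 without plant 2 (exact sign-flip p = 0.344). Plant 2 had the deepest endosperm library, 73941 counts, and so the highest matched depth and the lowest matched limit, 135.2 CPM. In the other plants that limit was higher, and fewer low-level sites could be called.

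Leaf-only sites were mostly near the presence limit. Over the 727 calls the median was 66 counts or 150.8 CPM. There were 513 under 200 CPM, 197 from 200 to 1000 CPM and 17 at 1000 CPM or more. Their median was 5.00 ± 4.83% of the median paternal insertion in the same leaf (SD, n = 7), and 14 of 727 reached 25% of it. Plant 8, with its limit of 399.4 CPM, stood at 15.9%, and without it the mean was 3.19 ± 0.39% (SD, n = 6). Endosperm-only sites had a median of 14 counts or 507.2 CPM, and 13.7 ± 7.37% of the paternal median (SD, n = 5 plants that had any). The 2 percentages come from libraries with different limits and give no order between the tissues.

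Most leaf-only sites lay below the presence limit of the endosperm library of the same plant. Their level in leaf exceeded the limit of the endosperm library of the same plant in 98 of 727 cases (13.5%), and 65 of these 98 were in plant 2. In 706 of 727 (97.1%) the endosperm library had 0 counts, including 95 of the 98. In plant 2, 65 of 97 leaf-only sites exceeded the limit of 135.2 CPM and all 65 had 0 counts in endosperm. In plants 5 and 9 the limit was exceeded by 2 of 112 and 3 of 163. A floor of 3 counts lies lower. In endosperm of plants 2 and 3 it was 40.6 and 81.8 CPM, below their lowest leaf-only sites, at 102.6 and 100.4 CPM. Endosperm held 0 counts at 97 of 97 and 107 of 111 of those plants' sites. The floor lay above the median leaf-only site in plants 4, 5 and 9, and between the lowest and the median in plants 1 and 8. Leaf-only sites were chosen for low endosperm counts, so this has no test.

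**Figure D5:**
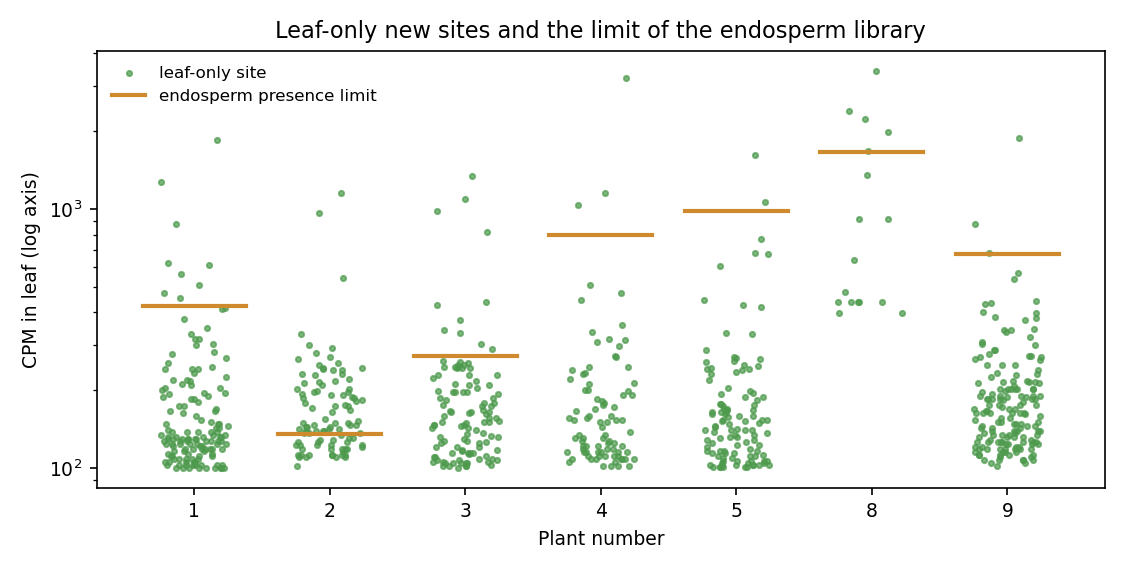
Each green point is 1 leaf-only new site, placed by plant and by its CPM in leaf on a log axis; the orange line is the lowest CPM at which the endosperm library of that plant could hold 10 counts and 100 CPM. Points above the line are 65 of 97 in plant 2 and 2 of 112 in plant 5.

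Of the 727 leaf-only calls, 724 spanned 9 bp, 359 (49.4%) had counts in no other library of the series, and 73 had counts in the father library below the presence limit. Only 6 were present in another family, and 9 were on the authors' list. There were 11 within 50 bp of a listed insertion or of one present in both tissues. The 725 distinct leaf-only sites ranged from 43 on chromosome 10 to 138 on chromosome 1.

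The 3 leaf-only sites with the highest CPM were in plants 4 and 8. In plant 4 the site at 173470672–173470680 on chromosome 5 had 1006 counts in leaf, 3221 CPM, and 0 of 12521 counts in endosperm. A count of 0 there allows up to 239.6 CPM, so the leaf level was at least 13.4-fold higher. No other library of the series had a count at this site. The other two were in plant 8, at 38620089–38620097 on chromosome 4 with 86 leaf and 8 endosperm counts, and at 5817367–5817375 on chromosome 6 with 60 and 6. Both had endosperm counts just under the minimum of 10, so the label of tissue rests on the depth of 5999 counts.

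The 3 endosperm-only sites with the highest CPM lay side by side in plant 4, at 183599025–183599033, 183599033–183599041 and 183599039–183599047 on chromosome 3. They had 14, 19 and 19 endosperm counts and 17, 19 and 19 leaf counts, so leaf held as many counts but at under 100 CPM. All 3 were within 50 bp of the new insertion of plant 4 at 183599037–183599045, which was present in both tissues. Of the 19 endosperm-only sites, 13 had 0 counts in leaf and 10 had counts in no other library.

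Site by site, an edgeR quasi-likelihood test with plant as a block compared leaf and endosperm at 150 sites with 10 or more counts in at least 4 of the 14 libraries. After Benjamini-Hochberg adjustment 64 passed 0.05 (42.7%), 47 higher in leaf (31.3%) and 17 higher in endosperm (11.3%). In 19 of the 150, of which 8 passed, no endosperm library reached 10 counts, so they entered through leaf alone. The 131 sites with 10 counts in libraries of both tissues gave 39 higher in leaf and 17 in endosperm. Scaled to the median paternal insertion of each library, 64 passed as well (42.7%), but 15 were higher in leaf and 49 in endosperm (32.7%). The median log2 difference of all tested sites, leaf over endosperm, was 0.38 with TMM factors, -0.08 with library totals, 0.46 with DESeq2 and -0.17 when scaled to paternal insertions. Directions of single classes therefore depend on the scale and the tool, and are given relative to them.

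Of the 29 insertions of the Mu-inactive parent, 11 were higher in endosperm and 4 in leaf with TMM factors. With library totals these were 24 and 0, scaled to paternal insertions 25 and 0, and with DESeq2 1 and 16. The median log2 of the class was -0.19 with TMM factors. Of 60 paternal insertions tested, 28 were higher in leaf and 1 in endosperm with TMM factors, with a class median of 0.47. That balance turned with the scale: it was 5 and 9 with library totals and 8 and 17 scaled to paternal insertions, but 32 and 0 with DESeq2. Of 36 new insertions in both tissues that passed the filter, 30 were in 2 plants and 6 in 3 plants. The test of an insertion rests on its carriers, here and for paternal insertions with few carriers. With TMM factors 7 of the 36 were higher in leaf and 0 in endosperm, with a median of 0.49. These were 1 and 0 with library totals, 2 and 2 scaled to paternal insertions, and 0 and 0 with DESeq2. The median of the class was 0.07 with library totals but -1.73 with DESeq2. DESeq2 gave medians of 0.83 for paternal insertions and 0.45 for those of the Mu-inactive parent. Whether the -1.73 came from the scale or from the fit at sites with few carriers was not tested. New insertions pass the filter more readily when several plants carry them, so the 36 do not stand for all 345.

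The 5 sites with the strongest excess in endosperm were all present in the father library and absent from the authors' list. The 4 that were present in both tissues of some plant stood at 132.6 to 429.0 CPM in the father, and 44 to 48 of the 49 libraries of other families held them. At 18957402–18957410 on chromosome 1 the log2 difference, leaf over endosperm, was -2.30 (SE 0.32, edgeR adjusted p = 1.43e-05), with means of 443.8 CPM in leaf and 3134 CPM in endosperm. At 44857168–44858977 on chromosome 8 it was -1.94 (SE 0.25, edgeR adjusted p = 6.34e-06), with 733.0 and 4399 CPM. Endosperm was higher in 7 of 7 plants at both.

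The next 3 were smaller. The log2 difference was -1.66 at 78235838–78240609 on chromosome 2, -1.24 at 160333759–160333767 on chromosome 8 and -1.12 at 27506645–27506653 on chromosome 9. Their edgeR adjusted p-values were 0.0019, 7.72e-05 and 0.0122, and with DESeq2 they were 0.209, 0.0898 and 0.509, past 0.05 in none of the 3. All 5 sites kept a negative sign in each scaling that was run.

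The 5 sites with the largest leaf excess among those past 0.05 were low-level sites that were neither paternal, nor of the Mu-inactive parent, nor present in both tissues of a plant. Each passed the filter through leaf libraries alone, where it had to be high, and endosperm was far shallower, so their values are given as counts without a test. At 71193666–71193674 on chromosome 5 leaf held 159 of 2665759 counts and endosperm 0 of 177787. At 159023391–159023399 on chromosome 8 leaf held 95 counts and at 64018338–64018346 on chromosome 1 it held 66, with 0 in endosperm at both. Against a floor of 3 counts over all 7 endosperm libraries these 3 were at least 3.53-fold, 2.11-fold and 1.47-fold higher in leaf. The last 2, at 147179851–147179859 and 159414087–159414095 on chromosome 9, had means of 27.7 and 37.8 CPM in leaf and 1.93 and 3.86 CPM in endosperm. The site at 159414087 starts 2 bp from the paternal insertion at 159414085.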

How the data were processed

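Insertion sites were profiled by MuSeq2, a PCR of adapter-ligated DNA fragments (mean 1000 bp) that selects those beside Mu, per the labels' protocols. Raw counts per site and library (1091553 sites, 64 libraries) were deposited by the authors, with a list of 1058 insertions with calls of 0 or 1 per plant and parent, per the file headers. Bowtie2 is named in the submitters' processing notes. The genome build, the criteria of the calls and whether reads or molecules were counted are not given in the sources used here. Positions are as deposited, and no gene names or sequences are given. Each column matched its label, and 0 columns of per-sample values were unused.

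CPM, presence (10 counts and 100 CPM), classes, switches and levels (log2(CPM + 1)) were computed from the deposited counts with pandas 2.3.3, numpy 2.4.6 and scipy 1.17.1. For equal depth the deeper library of a plant was sampled without replacement, with a fixed seed. Leaf and endosperm are of the same kernel per the series text, so the plant was the block. The new insertions of each of the 7 endosperm libraries overlapped most with those of the leaf labelled as its own plant, with a shared fraction of 0.214 to 0.779 against at most 0.112 for the leaf of any other plant. Sign-flip tests were exact over 128 assignments. edgeR 4.0.16 (R 4.3.3) used TMM factors, and DESeq2 1.42.0 was an alternative. On counts simulated for this comparison (150 sites), edgeR recovered 30 of 30 planted changes of 2 on the log2 scale and called 5 of 120 unchanged sites. The planted changes had random directions, so the simulation held no shift of a whole class and cannot judge the choice of scale. Presence minimums, depth, site merging, father presence, scaling, filters, the block and each plant were varied.

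Sites named were the switch-flanking paternal insertions (in full on the chromosomes with most), the 5 new insertions in both tissues with most carriers, the top private one of each plant, the top 3 of each tissue-specific class, the 5 largest edgeR differences each way, and the highest site of both listed classes. Examples outside this rule were chosen after their values were seen. The family, classes and tests were chosen with earlier results of these data known. Floors of 3 counts cover counting error only, because PCR reads are not independent molecules. p-values measure the spread between these plants.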

Additional observations from a re-analysis of the deposited data

Results flagged for a closer look

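At matched depth plant 2 had 75 leaf-only new sites, while the other 6 plants had 2 to 18, which set its value apart from the rest by its gap relative to the range. It was the only one of 19 sets of 7 values so set apart, and chance sets apart about 1 in 20. Plant 2 also had the highest matched depth, 73941 counts, against 5999 to 36697 in the others, and its endosperm-only sites at that depth numbered 9, against 1 to 8. The part of depth in this value was not tested.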

How the results depend on the processing

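Of 164 alternative values, 136 were scored the same. For a test this meant the same direction and side of the threshold. For a count, edgeR calls included, it meant a total within 1.5-fold of the main value, whatever the direction of the calls. With library totals the edgeR count was thus scored the same although its balance between leaf and endosperm turned. The numbers of insertions present and of tissue-specific sites depended on depth and on the minimum: leaf minus endosperm was 9.86 and 12.6 at matched depth, 0.833 and 3.67 when plant 2 was also left out, 302.7 and 301.1 at 5 reads and 50 CPM, 33.9 and 32.4 at 20 reads and 200 CPM (exact sign-flip p = 0.0156 at both), and -1.86 and -1.43 at 10 reads and 1000 CPM. In plants 1, 5, 8 and 9 alone, which share few new insertions, it was 108.2 and 107.5 (exact sign-flip p = 0.125, the smallest 4 plants allow). The Mu-inactive parent's insertions gave 1.08 with sites of 9 bp only. Switches differed by 2.02 in runs of 2 or more and, as a percent of intervals, by 1.5 (exact permutation p = 0.682). New minus paternal level in leaf was -0.0118 with private insertions only. Leaving out each plant in turn gave 91 to 115.5 for insertions present and 54.2 to 57 for new insertions in both tissues. It gave 91.2 to 115.2 for tissue-specific sites, 3.91 to 6.25 points for transmission and 3.82 to 5.15 for switches. Private insertions with both flanking paternal insertions present gave -9.98 to -4.99 points. Levels gave -0.0295 to 0.0395 in leaf and -0.0642 to -0.0121 in endosperm. The Mu-inactive parent's insertions gave 0.67 to 0.77, and edgeR calls numbered 51 to 70. The leaf level turned negative without plant 5 (-0.0295) or plant 8 (-0.0144). Without the replicate block the differences were 101.3, 101.1 and 0.71, each with exact permutation p = 0.000583, the levels 0.02 and -0.05, and the edgeR calls 14; the block changed no other call. edgeR calls were 153 of 643 sites with the filter at 2 libraries and 235 of 452686 with no filter, where more sites were tested. By scaling or tool they were 6 leaf and 38 endosperm with totals and 49 and 3 with DESeq2. Leaving out insertions listed for both parents gave no value, since all 29 are. The causes of these changes were not tested, other than the numbers of sites and plants named. Alternatives with plants 1, 5, 8 and 9, without plant 2, without plant 8 for leaf-only levels, with 9 bp sites, and scaled to paternal insertions were chosen after seeing the data. Depth limits which leaf-only sites endosperm could show.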
